A study of Mus musculus with 6 samples.

Results

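Solute carriers of 11 families that move inorganic ions and metals across membranes were compared between the intestine of Klf5-deleted and control mouse embryos. The families were Slc4 and Slc26 (bicarbonate and other anions), Slc9 (sodium-proton exchange), Slc12 (cation-chloride cotransport), Slc20 and Slc34 (phosphate), Slc8 and Slc24 (calcium), Slc30 and Slc39 (zinc and related metals) and Slc41 (magnesium). The members were chosen by a rule on the symbol, as all genes of these families in the A and B subfamilies except Slc12a2, Slc26a3, Slc26a6, Slc9a2 and Slc9a3. That rule was set with earlier results of these data known. The members came to 73 of the 19938 genes measured.

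Each group held 3 microarrays, and each array was hybridised with RNA from a pool of 2 intestines taken at E14.5, about when villi begin to form, from segments lying about 1.5 cm in front of the cecum. The deleted embryos had the genotype Klf5D/D, and the controls had Klf5wt/wtShhEGFP/Cre+, wild type at Klf5 with the Cre allele; both were of a mixed strain that is part C57Bl/6. In the ShhEGFP/Cre allele, Cre is expressed from the Shh locus, which is active in gut epithelium. The labels do not list that allele for the deleted embryos. The segments held the whole gut wall, so each value mixes epithelium, muscle, mesenchyme, nerve and blood. Epcam (epithelium) read 11.07 to 11.33 in Klf5-deleted pools and 11.72 to 11.87 in control pools on the log2 signal scale, and the smooth muscle gene Acta2 read 13.69 to 13.71 and 13.62 to 13.75, so markers of the labelled tissue were present in both groups.

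Ion carriers work in pairs across an absorptive cell. An apical carrier lets an ion in from the lumen, a basolateral carrier or pump passes it to the blood, and the sodium-potassium pump supplies the gradient. Zinc importers of the Slc39 (ZIP) family bring zinc and, for some members, manganese or iron into the cytosol, and Slc30 (ZnT) proteins move zinc out of the cytosol, across the plasma membrane or into vesicles. Klf5 is a zinc-finger factor of epithelia that acts on transcription, and its family binds GC-rich and CACCC-type sequences.

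The largest falls were those of Slc39a5 and Slc39a4, the zinc importers best known from the intestinal epithelium, and of the sodium-bicarbonate cotransporter gene Slc4a4. Slc39a5 fell to 30.1% of the control signal, Slc39a4 to 60.3% and Slc4a4 to 69.6%. Smaller falls were measured for the phosphate transporter gene Slc34a2 and for Slc12a8, Slc39a14, Slc39a8, Slc39a11 and Slc30a4. The members that rose were Slc30a10, Slc4a3, Slc4a10, Slc39a10, Slc26a7, Slc39a6 and Slc12a4, by at most 1.31-fold. Of the 73 members, 16 passed the threshold (limma, Benjamini-Hochberg adjusted p below 0.05 over all 19938 genes), 7 of them higher and 9 lower, which is 21.9%. Over all genes 17.5% passed (8.95% higher and 8.58% lower), so the share among these carriers was close to the background. The counts by family and by list below are to be read beside these shares. With each array centred on its median, 40.8% of the calls over all genes were higher, against 51.1% as deposited. The median log2 fold change, Klf5-deleted minus control, was 0.02 over the members and 0.02 over all genes. The groups did not overlap for 27 members, 37.0% of them, against 36.0% of all genes. In the exact two-sided permutation test each of the 16 reached p = 0.1, the smallest value that 3 arrays against 3 allow.

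**Figure D1:**
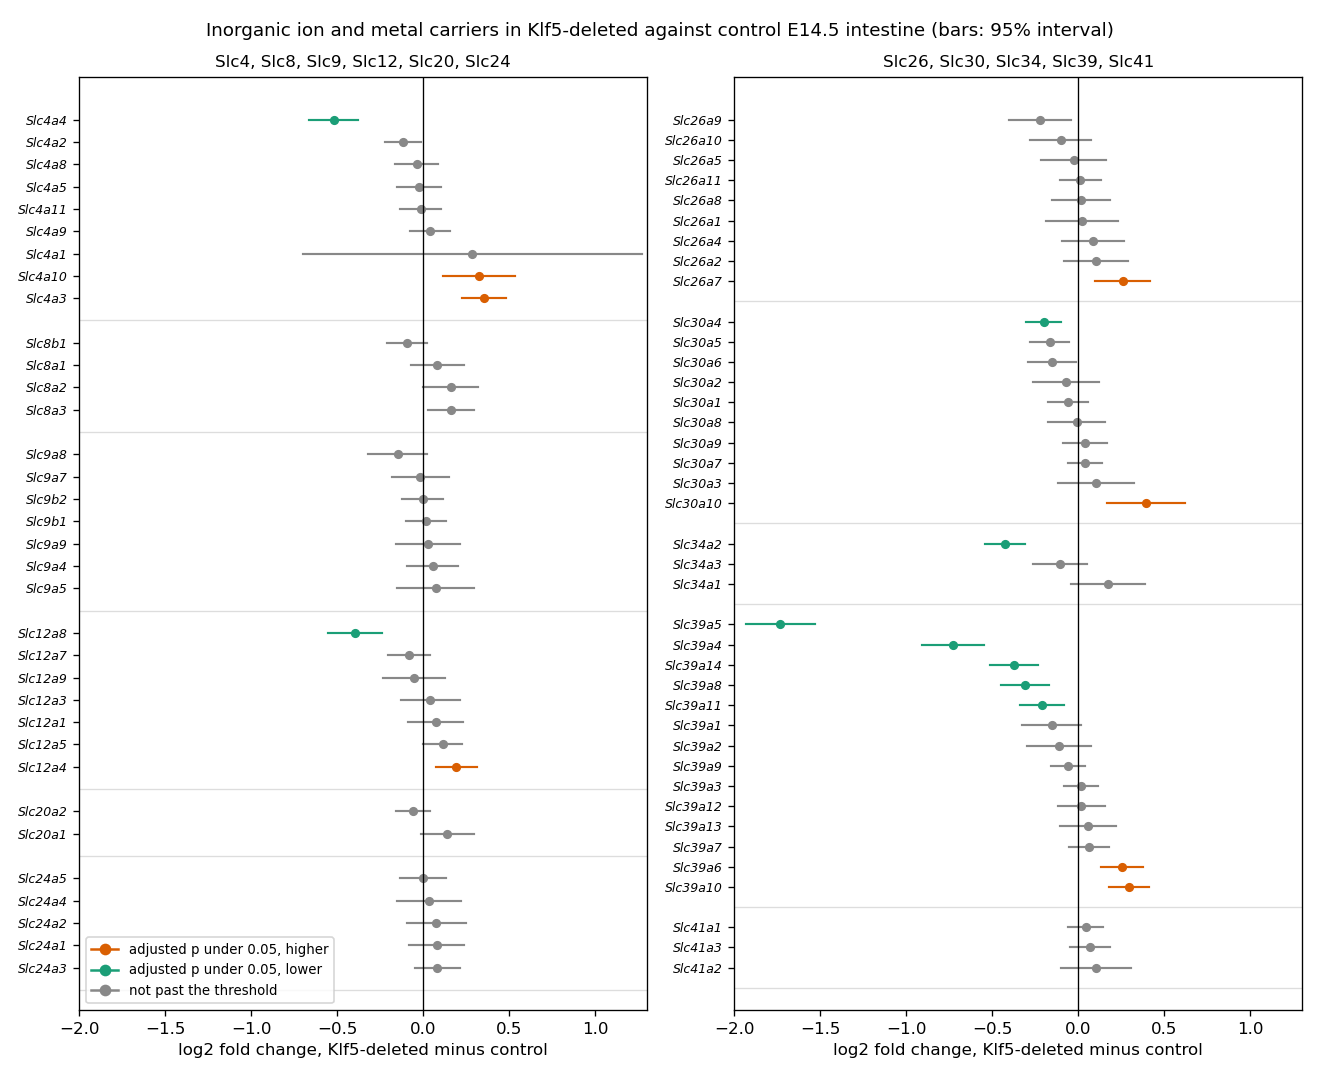
Log2 fold change (x axis, Klf5-deleted minus control) of the 73 carriers, one gene per line and grouped by family, with 95% intervals from limma. Slc39a5 (−1.73) lies far left of the others, most members lie within 0.2 of 0, and Slc4a1 has the widest interval, from −0.70 to 1.27.

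Some values of the arrays as a whole touch every result below. The deleted gene, Klf5, gave 10.24, 10.49 and 10.34 in Klf5-deleted pools and 11.55, 11.74 and 11.77 in control pools (log2 fold change −1.33, SE 0.08, adjusted p = 9.62e-05 with limma), so the array labels match the targeted gene. Of 18 epithelial marker genes 17 fell and 1, Prom1, rose, with a median log2 fold change of −0.98. Their summed linear signal was 21241 to 24795 in Klf5-deleted pools and 43505 to 44814 in control pools. Their part in the carriers' falls was not tested. In whole tissue, fewer epithelial cells and less RNA per epithelial cell cannot be told apart. The pools also differed in sex. A male share was scaled from 3 Y-linked genes, with the Klf5-deleted mean set as all male and the lowest array as 0%. On this relative scale it was 95.1% to 103% in the Klf5-deleted pools and 0%, 46.6% and 41.5% in control pools. The scale does not measure the true share of males in any pool. With the male share as a covariate in limma, 0 of the 73 members passed (12 had an unadjusted p below 0.05) and 84 of all genes did, 0.421%. In that fit the standard errors of the members were 2.56 times as large (median), and all 16 called members kept their sign. Among these 16, the log2 fold change shrank by over 1.5 times in that fit for Slc39a8 (−0.17), Slc39a10 (0.17) and Slc12a8 (−0.26). It grew by over 1.5 times for Slc39a11 (−0.42), Slc12a4 (0.33), Slc4a3 (0.59) and Slc4a10 (0.53). Sex and genotype can therefore be told apart only in part. The single X-linked member, Slc9a7, gave a log2 fold change of −0.02 (SE 0.07) and did not pass.

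Before the values, promoter sequences are shown for 3 of the carriers that fell: Slc39a5, which has the largest change, Slc4a4, the largest fall outside the zinc carriers, and Slc34a2. They are from RefSeq (GRCm38.p6), cover 300 bases around a transcription start, most of them before it, and are read 5′ to 3′ on the gene's strand. Capitals mark CCNCNCCC (N is any base), letters of the KLF and SP type of site, searched on both strands. The stricter CCCCNCCC is one form of it, so the motifs overlap.
Slc39a5, chr10:128401175-128401474, minus strand: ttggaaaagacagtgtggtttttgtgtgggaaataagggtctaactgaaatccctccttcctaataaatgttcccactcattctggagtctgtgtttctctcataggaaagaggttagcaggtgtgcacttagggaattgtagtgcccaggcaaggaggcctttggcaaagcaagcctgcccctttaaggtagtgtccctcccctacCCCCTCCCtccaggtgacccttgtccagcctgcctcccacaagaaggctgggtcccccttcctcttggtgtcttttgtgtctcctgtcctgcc
Slc39a5, chr10:128400417-128400716, minus strand: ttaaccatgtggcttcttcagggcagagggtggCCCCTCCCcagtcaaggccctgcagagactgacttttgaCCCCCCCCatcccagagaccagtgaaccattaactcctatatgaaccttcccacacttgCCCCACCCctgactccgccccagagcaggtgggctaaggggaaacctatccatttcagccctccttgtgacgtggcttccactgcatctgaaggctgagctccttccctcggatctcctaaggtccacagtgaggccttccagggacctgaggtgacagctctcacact
Slc4a4, chr5:88887010-88887309, plus strand: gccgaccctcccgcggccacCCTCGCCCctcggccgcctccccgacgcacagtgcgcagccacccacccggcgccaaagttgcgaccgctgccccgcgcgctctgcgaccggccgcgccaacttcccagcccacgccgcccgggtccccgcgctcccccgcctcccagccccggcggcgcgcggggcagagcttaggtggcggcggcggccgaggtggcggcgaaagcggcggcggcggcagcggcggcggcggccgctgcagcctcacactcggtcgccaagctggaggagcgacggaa
Slc34a2, chr5:53049103-53049402, plus strand: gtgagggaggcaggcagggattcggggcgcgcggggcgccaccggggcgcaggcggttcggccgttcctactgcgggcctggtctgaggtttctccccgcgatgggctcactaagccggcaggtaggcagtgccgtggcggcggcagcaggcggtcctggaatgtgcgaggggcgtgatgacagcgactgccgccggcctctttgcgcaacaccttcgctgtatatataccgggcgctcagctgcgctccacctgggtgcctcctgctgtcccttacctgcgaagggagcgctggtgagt

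The Slc39a5 promoters held 1 and 3 matches, all also matches of CCCCNCCC, the Slc4a4 promoter printed held 1, the other Slc4a4 promoter in the table (chr5:89027716-89028015, not printed) held 0, and the Slc34a2 promoter held 0 in these 300 bases. A promoter was given for 60 of the 73 members, and 41 of them (68.3%) had a match, against 51.9% of the 27025 genes with a promoter in the table. By group, 6 of 7 members that fell, 3 of 5 that rose and 32 of 48 that did not pass had a match. A gene was counted if any of its promoters matched. By promoter, the shares in the same order were 8 of 13 (61.5%), 3 of 7 (42.9%) and 34 of 56 (60.7%). Over all promoters the share was 49.5%. No promoter was given for Slc39a4 and Slc39a14, which fell, or for Slc39a6 and Slc26a7, which rose. Matches were thus present among carriers of all 3 outcomes, and a match is a run of letters, not a measured binding site.

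The zinc importers of the Slc39 family held the most calls. Of 14 members, 5 fell, 2 rose and 7 did not pass, beside 17.5% of all genes past the threshold; the family was not tested as a set. Slc39a5, which in mouse takes zinc up across the basolateral membrane of enterocytes, read 8.55, 8.85 and 8.57 in Klf5-deleted pools and 10.40, 10.44 and 10.32 in control pools on the log2 signal scale. Every Klf5-deleted array lay below every control, by more than the spread within either group. The log2 fold change was −1.73 (SE 0.09, adjusted p = 3.97e-05 with limma), a 3.33-fold fall. Among the 18 epithelial markers, 1 fell by more than Slc39a5: Elf3, an ETS factor gene, with a log2 fold change of −3.28. Slc39a5 was the 1 member of the 9 that fell whose fall exceeded the median of the epithelial markers. With the male share as a covariate its log2 fold change was −1.74 (SE 0.24, adjusted p = 0.0530).

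Slc39a4, the apical zinc importer of the intestine, whose human counterpart is mutated in the zinc deficiency disease acrodermatitis enteropathica, read 7.79, 7.92 and 7.67 in Klf5-deleted pools. Its control arrays read 8.46, 8.63 and 8.47, without overlap. The log2 fold change was −0.73 (SE 0.08, adjusted p = 0.000932). These 2 importers were the members of the family with a change of at least 0.5, a size and direction that 3.24% of all genes reached as calls.

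Slc39a14 and Slc39a8, related importers that also carry manganese, changed less. Slc39a14 read 8.95, 9.01 and 9.02 in Klf5-deleted pools and 9.39, 9.45 and 9.26 in control pools (log2 fold change −0.37, SE 0.06, adjusted p = 0.00575). Slc39a8 read 8.91, 8.92 and 9.08 in Klf5-deleted pools and 9.33, 9.28 and 9.23 in control pools (log2 fold change −0.31, SE 0.06, adjusted p = 0.0120). In both genes the groups stood apart, with a gap smaller than those of Slc39a5 and Slc39a4. Slc39a11, a zinc importer distant from the others in sequence, fell by 0.21 (SE 0.05, adjusted p = 0.0374). The call did not survive leaving out any 1 of the 3 Klf5-deleted replicates, or control replicate 2 or 3, with log2 fold changes of −0.22 to −0.17 and adjusted p of 0.0691 to 0.118.

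Slc39a10 and Slc39a6, plasma-membrane importers whose proteins form a complex in mouse cells, went the other way. Slc39a10 read 11.16, 11.19 and 11.21 in Klf5-deleted pools and 10.83, 10.88 and 10.96 in control pools, and rose by 0.29 (log2; SE 0.05, adjusted p = 0.00718). Slc39a6 read 10.38, 10.30 and 10.22 in Klf5-deleted pools and 10.06, 10.04 and 10.04 in control pools, and rose by 0.25 (SE 0.05, adjusted p = 0.0164). All Klf5-deleted arrays exceeded all controls for both genes. Without control replicate 2 the Slc39a6 value was 0.25 (adjusted p = 0.0599), and without replicate 3 it was 0.25 (adjusted p = 0.0564), neither past the threshold.

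The other 7 importers did not pass, at log2 fold changes of −0.16 to 0.06. Slc39a1, a ubiquitous plasma-membrane importer, had the largest of these (−0.16, SE 0.07) and the Golgi and endoplasmic reticulum importer Slc39a7 the brightest signal, at 0.06 (SE 0.05). A second row of Slc39a1 gave −0.06. Slc39a2 (−0.11), Slc39a9 (−0.06), Slc39a3 (0.02), Slc39a12 (0.02) and Slc39a13 (0.06) made up the rest.

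**Figure D2:**
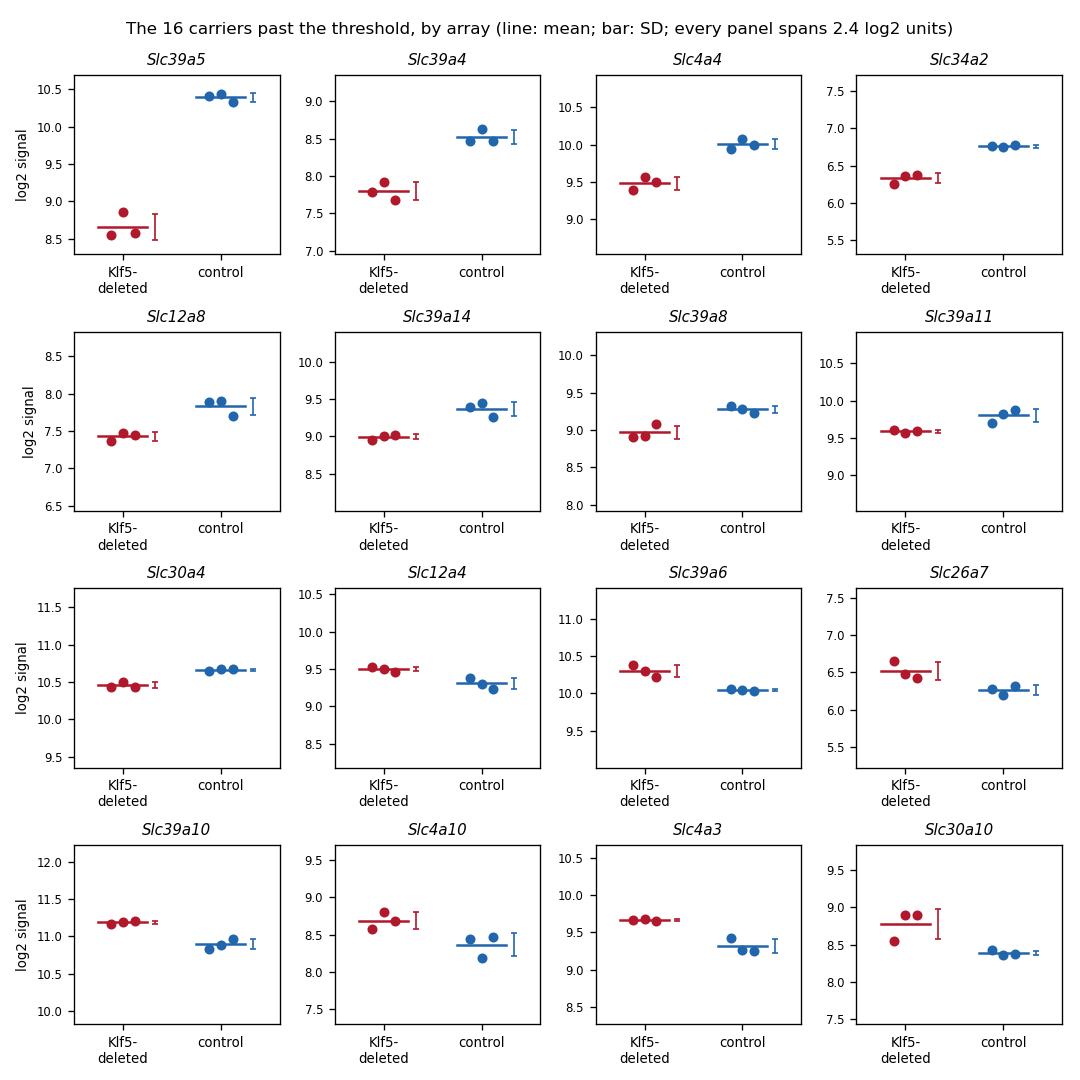
Log2 signal (y axis) of the 16 carriers past the threshold in the 3 Klf5-deleted arrays (left, red) and the 3 control arrays (right, blue), ordered from the largest fall to the largest rise, with the mean as a line and the SD as a bar. All panels span the same range, so that the gap of Slc39a5 (8.66 against 10.39 on average) can be set against the small gaps of the genes that rose.

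The zinc exporters of the Slc30 family showed 1 fall and 1 rise among 10 members. Slc30a4, which loads zinc into vesicles and is mutated in the lethal milk mouse, read 10.44, 10.50 and 10.43 in Klf5-deleted pools and 10.64, 10.67 and 10.67 in control pools. The difference was small beside those of Slc39a5 and Slc39a4 and near that of Slc39a11 (log2 fold change −0.20, SE 0.04, adjusted p = 0.0188 with limma). The call did not survive leaving out replicate 1 or 3 of the Klf5-deleted pools or replicate 2 or 3 of the controls (−0.20 to −0.19, adjusted p of 0.0526 to 0.0687). Slc30a10, a manganese exporter in mammals, read 8.54, 8.90 and 8.89 in Klf5-deleted pools and 8.42, 8.36 and 8.38 in control pools (log2 fold change 0.39, SE 0.10, adjusted p = 0.0304). Klf5-deleted replicate 1 lay close to the controls while the other 2 stood above them. That call was lost without Klf5-deleted replicate 2 or 3 and without any 1 of the 3 controls (0.33 to 0.41, adjusted p of 0.0686 to 0.0974).

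Slc30a5 and Slc30a6, whose proteins pair to bring zinc into the early secretory pathway, were at −0.17 (SE 0.05, adjusted p = 0.0512) and −0.15 (SE 0.06, adjusted p = 0.134). For both genes the groups did not overlap, as for 36.0% of all genes. Slc30a5 passed when the lowest 25% of genes (adjusted p = 0.0357) or 50% (adjusted p = 0.0196) were left out, with trend and robust variance (adjusted p = 0.0182) and with array weights (adjusted p = 0.0232). The plasma-membrane exporter Slc30a1, a target of the zinc sensor MTF-1, was at −0.06 (SE 0.05). The log2 fold changes of Slc30a2, Slc30a3, Slc30a7, Slc30a8 and Slc30a9 lay between −0.07 and 0.10, none past the threshold. Slc30a3 and Slc30a8, which fill synaptic vesicles and insulin granules, were among them.

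Of 7 genes that buffer or sense zinc beside these carriers, 2 fell and 0 rose, against 17.5% of all genes past the threshold. The metallothionein gene Mt1, which binds zinc, read 8.80, 10.30 and 9.81 in Klf5-deleted pools and 11.46, 11.61 and 10.76 in control pools (log2 fold change −1.64, SE 0.38, adjusted p = 0.0240). Mt2 had a similar difference and a wider spread, at 9.32, 11.77 and 11.21 in Klf5-deleted pools and 12.46, 12.79 and 11.76 in control pools, and did not pass (−1.57, SE 0.59, adjusted p = 0.117). Klf5-deleted replicate 1 was the lowest array for both. Gpr39, a zinc-sensing receptor gene, fell by 0.87 (SE 0.08), and the sensor gene Mtf1 was at −0.03 (SE 0.05).

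Among the bicarbonate carriers of the Slc4 family, 1 of 9 members fell and 2 rose. Slc4a4 encodes NBCe1, which brings sodium and bicarbonate in across the basolateral membrane of intestinal epithelium. It read 9.39, 9.57 and 9.50 in Klf5-deleted pools and 9.95, 10.08 and 9.997 in control pools. The gap between the groups was wider than the range within either (log2 fold change −0.52, SE 0.06, adjusted p = 0.00151). The male share fit gave −0.66 (SE 0.16, adjusted p = 0.172).

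Slc4a3, an anion exchanger best known from heart and brain, read 9.67, 9.68 and 9.65 in Klf5-deleted pools and 9.42, 9.27 and 9.26 in control pools (log2 fold change 0.35, SE 0.06, adjusted p = 0.00554). A second, dimmer row of the gene gave 0.03, and with the mean of both rows the call was lost (0.19, adjusted p = 0.0608). Slc4a10, a sodium-coupled bicarbonate transporter of neurons, read 8.58, 8.81 and 8.68 in Klf5-deleted pools and 8.44, 8.19 and 8.47 in control pools (log2 fold change 0.32, SE 0.09, adjusted p = 0.0463). Its groups were separated by a narrow gap. The Slc4a10 call was lost without Klf5-deleted replicate 2 or 3 and without any 1 of the 3 controls (0.24 to 0.37, adjusted p of 0.0649 to 0.124).

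Beside these neuronal genes, 1 of 10 measured markers of enteric neurons and glia rose (Sox10, 0.39, SE 0.07) and 0 fell, with a median log2 fold change of 0.16. The summed linear signal of these markers was 17092 to 19966 in Klf5-deleted pools and 16272 to 16931 in control pools. Markers of other cell types moved too. All 8 mesothelial markers passed, with a median log2 fold change of 0.57: 6 rose, with Muc16 the highest at 0.92, and Krt19 (−1.52) and Msln (−0.52) fell. Their summed linear signal was 8466 to 10486 in Klf5-deleted pools and 8078 to 9386 in control pools, so the sums overlapped. Of 8 fibroblast markers 2 rose, Pdgfra (0.26) and Fn1 (0.29), and 0 fell, with sums of 42889 to 45535 in Klf5-deleted pools and 39370 to 40499 in control pools. The part of these cell types in the values of the 7 carriers that rose was not tested. Among the other neuronal carriers, the potassium-chloride cotransporter gene Slc12a5 was at 0.11 (SE 0.05) and did not pass. Its groups did not overlap, as for 36.0% of all genes.

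Slc4a1 encodes band 3, the anion exchanger of red cells, and varied more than any other member. It read 9.52, 10.92 and 11.02 in Klf5-deleted pools and 10.27, 9.65 and 10.69 in control pools, so the groups overlapped widely (log2 fold change 0.28, SE 0.42, adjusted p = 0.727). The other red cell genes, Alas2, Epb42 and Rhag, also had their lowest values in Klf5-deleted replicate 1, and within control pools all 4 were lowest in replicate 2 and highest in replicate 3. With Slc4a1 included, the summed linear signal of the 4 was 1742 to 4503 in Klf5-deleted pools and 2047 to 3662 in control pools. Of these 4 genes 0 passed in limma, and 0 had an unadjusted p below 0.05.

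**Figure D3:**
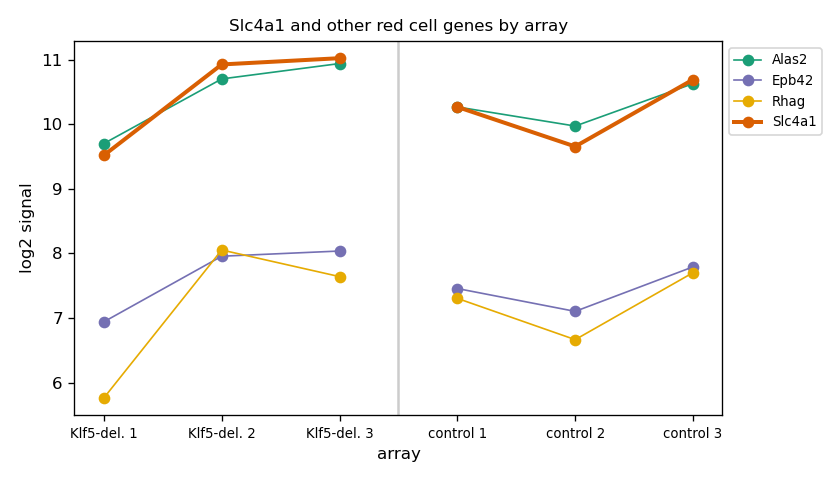
Log2 signal (y axis) of Slc4a1 and of the red cell genes Alas2, Epb42 and Rhag in each array (x axis), Klf5-deleted arrays left and control arrays right. The 4 lines have their lowest point in Klf5-deleted replicate 1 and, within control pools, dip in replicate 2; Slc4a1 runs from 9.52 to 11.02.

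The remaining Slc4 genes did not pass. Slc4a2, the widespread anion exchanger AE2, was at −0.12 (SE 0.05, adjusted p = 0.124). Its groups did not overlap, as for 36.0% of all genes. Slc4a5, Slc4a8, Slc4a9 and Slc4a11 lay between −0.04 and 0.04.

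Of the 9 anion carriers of the Slc26 family, 1 rose and 0 fell. Slc26a7, a chloride carrier known from stomach and kidney, read 6.65, 6.48 and 6.43 in Klf5-deleted pools and 6.28, 6.19 and 6.31 in control pools (log2 fold change 0.26, SE 0.07, adjusted p = 0.0418). The signal was dim, in the lowest 19.1% of genes. The call did not survive leaving out Klf5-deleted replicate 1 or 2, or any 1 of the 3 controls (0.19 to 0.28, adjusted p of 0.0705 to 0.138). Slc26a9, a chloride channel of stomach and airway, was at −0.22 (SE 0.08, adjusted p = 0.0926). The sulfate transporter gene Slc26a2, the brightest of the family, was at 0.10 (SE 0.08), and the 6 others lay between −0.10 and 0.08.

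Carbonic anhydrases, whose active enzymes supply bicarbonate to the Slc4 and Slc26 carriers, changed in both directions. Of 16 genes, 3 fell and 3 rose, against 17.5% of all genes past the threshold. Not every gene listed encodes an active enzyme. The falls were those of Car8 (−1.37, SE 0.13), which lacks catalytic activity, the cytosolic enzyme gene Car13 (−0.79, SE 0.07) and Car9 (−0.52, SE 0.08). The rises were those of Car14 (1.15, SE 0.13), a membrane-bound enzyme gene, Car3 (0.41, SE 0.09) and Car11 (0.36, SE 0.07). Car1 and Car2, which red cells express, were at 0.31 (SE 0.38) and 0.47 (SE 0.34) and did not pass.

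In the Slc12 family 2 of 7 members passed. Slc12a8, a carrier of debated substrate, read 7.37, 7.48 and 7.45 in Klf5-deleted pools and 7.895, 7.897 and 7.695 in control pools (log2 fold change −0.40, SE 0.07, adjusted p = 0.00763). Slc12a4, the widespread potassium-chloride cotransporter KCC1, read 9.52, 9.50 and 9.47 in Klf5-deleted pools and 9.38, 9.31 and 9.24 in control pools (log2 fold change 0.19, SE 0.05, adjusted p = 0.0414). The groups did not overlap for either gene. The Slc12a4 call was lost without any 1 of the 3 Klf5-deleted replicates and without control replicate 2 or 3 (0.16 to 0.20, adjusted p of 0.0836 to 0.121).

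The other Slc12 members did not pass. Slc12a7 (KCC4), the brightest, was at −0.08 (SE 0.05), and Slc12a1 and Slc12a3, salt carriers of the kidney, were at 0.07 and 0.04. Slc12a9 was at −0.05. Of 11 genes of the WNK and SPAK kinase system that sets the activity of Slc12 carriers, 3 rose and 3 fell. Over all genes 17.5% passed. Wnk3, which is X-linked, rose by 0.64 (SE 0.06), Klhl3 by 0.26 (SE 0.06) and Stk39, which encodes SPAK, by 0.20 (SE 0.05). Wnk2 fell by 0.39 (SE 0.07), Klhl2 by 0.25 (SE 0.06) and Oxsr1 by 0.24 (SE 0.06).

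Phosphate carriers gave 1 call among 5. Slc34a2, the apical sodium-phosphate cotransporter of intestine and lung, read 6.26, 6.37 and 6.38 in Klf5-deleted pools and 6.76, 6.74 and 6.78 in control pools. The controls lay within 0.04 of each other, and all 3 Klf5-deleted arrays were lower (log2 fold change −0.43, SE 0.05, adjusted p = 0.00136). The signal was in the lowest 21.1% of genes, where arrays understate folds. Slc34a1 (0.17, SE 0.09) and Slc34a3 (−0.11, SE 0.07), the kidney cotransporters, did not pass. Slc20a1 and Slc20a2, which supply phosphate to most cells, were bright and at 0.14 (SE 0.07) and −0.06 (SE 0.04); neither passed, although their groups did not overlap. Of 6 other genes of phosphate handling 1 rose, the FGF receptor gene Fgfr1 (0.32, SE 0.05), and 0 fell.

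No sodium-proton, calcium or magnesium carrier passed in limma. Of the 7 Slc9 genes, 0 passed and 0 had an unadjusted p below 0.05, with log2 fold changes from −0.15 to 0.07. Slc9a8, which works in the Golgi and at the brush border, was the brightest and had the largest difference (−0.15, SE 0.07), with overlapping groups. Slc9a4, Slc9a5, Slc9a9, Slc9b1 and Slc9b2 were at 0.07 or below, none of them lower than −0.0045. The excluded carriers of the same families did not pass either: the exchanger genes Slc9a2 (−0.03, SE 0.09) and Slc9a3 (−0.13, SE 0.05), Slc12a2 (−0.04, SE 0.04), Slc26a3 (−0.22, SE 0.09) and Slc26a6 (0.05, SE 0.05).

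Of 12 regulators of sodium-proton exchange, 5 fell, 0 rose and 7 did not pass, against 8.58% of all genes lower: Prkg2, a cGMP-dependent kinase that inhibits the apical exchanger (−0.84, SE 0.07), Gna11 (−0.46, SE 0.05), the membrane linker gene Ezr (−0.41, SE 0.04), and the scaffold genes Pdzd3 (−0.23, SE 0.05) and Slc9a3r1 (−0.21, SE 0.05). The sodium-potassium pump showed 2 falls and 1 rise among 11 genes, against 17.5% of all genes past the threshold in either direction. The beta subunit gene Atp1b1 fell by 0.85 (SE 0.09) and the modulator gene Fxyd3 by 0.98 (SE 0.11), while Fxyd6 rose by 0.33 (SE 0.07).

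Of the 4 Slc8 sodium-calcium exchangers 0 passed and 1 had an unadjusted p below 0.05. That gene was Slc8a3 (0.16, SE 0.06, adjusted p = 0.0965), a form of muscle and brain, and Slc8a2 was at 0.16 (SE 0.07). Slc8a1, the form of heart and smooth muscle, was at 0.08 (SE 0.07), with 0.19 in its second row, and the mitochondrial exchanger Slc8b1 was at −0.10 (SE 0.05). All 5 Slc24 potassium-dependent exchangers were within 0.08 of 0, and 0 had an unadjusted p below 0.05. Slc24a3 was the brightest of them, at 0.08 (SE 0.06). Among 15 other calcium genes 2 fell and 1 rose. The calcium buffer gene S100g (calbindin-D9k) read 6.89, 7.40 and 7.28 in Klf5-deleted pools and 9.26, 9.38 and 9.28 in control pools (log2 fold change −2.11, SE 0.12, adjusted p = 7.21e-05). S100g is X-linked, and the pools differed in sex. Mcu, the mitochondrial uniporter, fell by 0.33 (SE 0.06), and the pump gene Atp2a3 rose by 0.21 (SE 0.05).

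Slc41a1, Slc41a2 and Slc41a3, magnesium carriers, were at 0.04 (SE 0.04), 0.10 (SE 0.09) and 0.07 (SE 0.05), and 0 of the 3 had an unadjusted p below 0.05. Of 16 other genes of magnesium handling 3 fell and 1 rose. Cnnm4, a basolateral magnesium exporter of mouse intestine, fell by 1.00 (SE 0.08), and the transporter genes Nipal1 and Nipal2 fell by 1.23 (SE 0.08) and 0.90 (SE 0.10). Tusc3 rose by 0.18 (SE 0.05). The magnesium genes that fell were thus all outside the Slc41 family.

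Leaving out 1 array at a time kept the sign of all 16 called members. For 9 of them, Slc39a5, Slc39a4, Slc39a14, Slc39a8, Slc39a10, Slc4a4, Slc4a3, Slc34a2 and Slc12a8, the call was kept in all 6 such fits. The log2 fold change of Slc39a5 lay between −1.83 and −1.68 in them and that of Slc39a4 between −0.79 and −0.67. The count of members called was 9 without control replicate 2 (2 higher) and 9 without control replicate 3 (2 higher), against 16 with all arrays. The number called higher, 7 with all arrays, was 3 and 4 when Klf5-deleted replicates 2 and 3 were left out, and 4 when control replicate 1 was. Centring each array on its median ended the calls of Slc4a10, Slc12a4, Slc26a7 and Slc39a11, and quantile normalization those of Slc4a10 and Slc26a7.

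**Figure D4:**
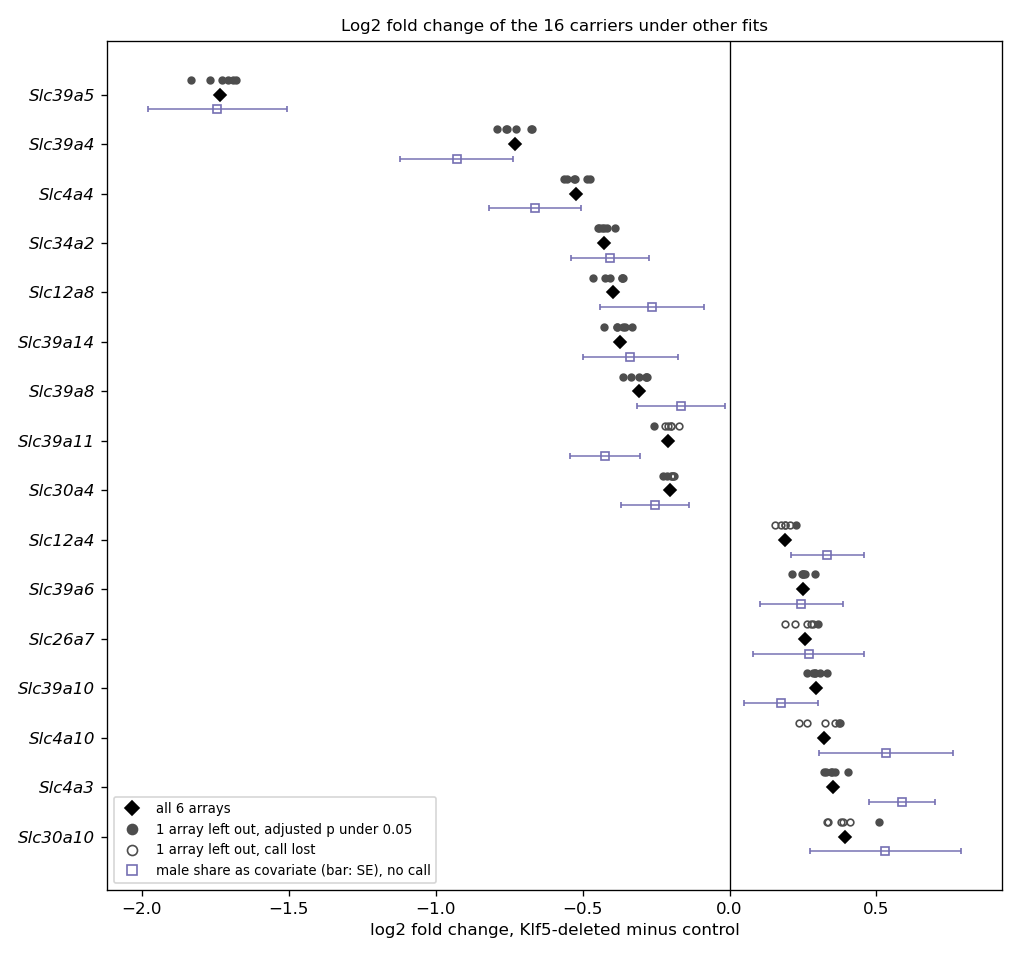
Log2 fold change (x axis) of the 16 called carriers with all 6 arrays (diamonds), with each array left out in turn (circles, open where the call was lost) and with the male share as a covariate (squares, bar: SE). No point crosses 0; the 9 genes with only filled circles kept the call in all 6 fits that left out an array, and no square is a call.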

How the data were processed

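The arrays, Affymetrix Mouse Gene 1.0 ST, took RNA of intestine pools. The deposited values are log2 signals. Per the submitters' processing notes they come from RMA, run in Expression Console 1.1; RMA equalises array distributions, so a shift common to most genes is removed. No source used here gives the annotation's build. Arrays have no read depth, and their number limits the precision.

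Rows with 1 symbol (21789 of 35557) were kept, gene IDs gave current RefSeq symbols (GRCm38.p6, 21698 matched), and the brightest row per gene was used, giving 19938 genes with no filter on level. Groups and replicate numbers came from the titles. The fit was limma 3.58.1 in R 4.3.3 (lmFit, eBayes), Klf5-deleted minus control; p-values were adjusted over all genes by Benjamini-Hochberg, at a threshold of 0.05; it was tested on simulated data. Every member may be named; arrays are given for those past the threshold. Pathway genes named are those past the threshold and up to 3 others per list. Markers of smooth muscle, endothelium, leukocytes, mesothelium and fibroblasts gave 1, 0, 0, 6 and 2 rises and 0, 0, 0, 2 and 0 falls. The members and lists were chosen with earlier results of these data known. The labels do not say that pools are of separate litters, and p-values cover only the spread among these pools. Same-numbered arrays did not deviate together (correlations of −0.14, −0.27 and −0.03), so the values gave no sign that the numbers pair the samples. With 3 arrays per group this cannot exclude pairing, and the main fit did not use the numbers.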

Additional observations from a re-analysis of the deposited data

How the results depend on the processing

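Over 17 alternatives, the 16 called members kept the call in 196 of 264 gene-by-setting fits, lost it in 68 and reversed in 0. Of the 17, 1 was the same fit at a looser threshold of 0.1, where no call, that of Klf5 included, could be lost. Leaving out 1 array gave 9 to 13 members (2 to 5 higher, 7 to 9 lower) and 2000 to 2757 of all genes (868 to 1363 higher, 1132 to 1394 lower), the fewest genes without control replicate 2. With the replicate number as a block 8 members (2 higher) and 2008 genes (900 higher, 1108 lower) passed. That fit ended the calls of Slc39a8 (adjusted p = 0.056 in limma), Slc39a6, Slc39a11, Slc30a4, Slc30a10, Slc4a10, Slc12a4 and Slc26a7. Slc39a8 had kept its call in all 6 fits that left out 1 array. Of the 6 arrays, 0 correlated best with its own number. Members higher numbered 4 with median centring, 4 with the lowest 50% of genes left out and 3 with every row tested on its own. Median centring gave 1216 genes higher and 1767 lower, against 1785 and 1711. With the male share as a covariate 0 members (0 higher, 0 lower) and 84 genes (4 higher, 80 lower) passed in limma; the standard errors were 2.62 times as large (median over genes). The cause of these changes was not tested beyond that. Testing every row ended the calls of Slc4a10, Slc12a4, Slc26a7, Slc30a10 and Slc39a11, and array weights that of Slc26a7. With 3 arrays against 3, the size of change that sat at the threshold differed with the spread of the gene. Slc12a4, at 0.19 on the log2 scale, and Slc4a10, at 0.32, had adjusted p of 0.0414 and 0.0463 in limma. Klf5 kept its call in all 17, at −1.64 to −1.27. Members with dim signal may understate their folds.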
